A study of Mus musculus with 12 samples.

Results

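The genes examined here encode Polycomb and trithorax proteins, 39 of the 17901 genes in the deposited table. They were chosen by name and known function and not by a measured value, though with earlier results of these data known. They comprise 10 genes of Polycomb repressive complex 2 (PRC2), the 2 PRC1 ligase genes and 9 genes of canonical PRC1. Variant PRC1 has 9, and COMPASS and the H3K27 demethylases have 9. All 39 passed the filter on low values, a normalized count of 10 or more in at least 3 libraries, which 15750 genes passed. RNA was sequenced from the mouse embryonic stem (ES) cell line TT2 in 4 groups of 3 libraries. DKO cells lack both Rlf and Zfp292, a pair of zinc finger genes, and WT cells carry both. Cells of each genotype were sampled after 72 hours in ES medium without LIF and with 5 µM retinoic acid (RA), a signal that starts differentiation, and in the same medium with LIF and no RA (serum/LIF). The ES medium held knockout serum replacement and FBS in both conditions, and cells grew on gelatin. The labels call the replicates biological but do not say whether DKO libraries came from more than 1 clone, so p-values measure the spread between these libraries.

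The libraries held 30869766 to 40236799 reads in genes. In the DKO libraries, Rlf had 0.948, 0 and 0 normalized counts after RA, against 2627, 2472 and 2733 in WT. In serum/LIF Rlf had 0, 3.52 and 3.38 in DKO, against 3701, 3621 and 3509.6 in WT. Zfp292 had 0 reads in all 6 DKO libraries, against 3074, 2859 and 3566 normalized counts in WT after RA and 5273, 4801 and 4652 in WT in serum/LIF. The labels and the targeted genes therefore go together in all 12 libraries. Replicate 2 of WT after RA stood apart from its group, since chi-square divided by its degrees of freedom was 10.5 and 14.9 when its counts were set against the other 2 libraries, and 5.19 between those.

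Summed levels of 10 pluripotent ES cell markers were 8151 to 8810.1 in DKO and 5755 to 5959 in WT after RA, and 134058 to 137524 in DKO and 156793 to 160450.0 in WT in serum/LIF (normalized counts), and none of the 10 was at 0 reads in any group. For 10 fibroblast markers the sums were 63848 to 66494 in DKO and 50239 to 51867 in WT after RA, and 22347 to 23654 in DKO and 7496 to 7551 in WT in serum/LIF. For 10 neural markers they were 13073 to 13281 in DKO and 16289.6 to 16657 in WT after RA, and 13882 to 14553 in DKO and 10634 to 11312 in WT in serum/LIF, where Neurog2 was at 0 reads in DKO. The genotypes did not overlap in any of these sums. For 9 endoderm markers they were 12580.1 to 12909.7 in DKO and 10028 to 10919 in WT after RA, and 3196 to 3324 in DKO and 1466 to 1612 in WT in serum/LIF, where Ttr was at 0 reads in both genotypes. For 8 trophoblast markers they were 13596 to 14287 in DKO and 13315 to 14205 in WT after RA, and 5326 to 6369 in DKO and 4416 to 4621 in WT in serum/LIF. For 8 two-cell-like markers they were 103 to 106 in DKO and 3999 to 4154 in WT after RA, and 4.69 to 11.5 in DKO and 193 to 223 in WT in serum/LIF, where Tcstv1, Tcstv3 and Usp17lc were at 0 reads in DKO. Of these last 3 sums, the genotypes overlapped for the trophoblast markers after RA and not otherwise. After RA, 9 of the 10 pluripotent markers were higher and 1 lower in DKO, and 8 neural markers were lower and 1 higher. Of the 10 fibroblast markers, 5 were called there, all higher in DKO, and the median log2 fold change was 0.042. In serum/LIF, 6 pluripotent markers were lower and 8 fibroblast markers higher in DKO, and 6 neural markers were higher and 1 lower. The part of these cell type differences in the results below was not tested, and in bulk RNA fewer cells of a type and less RNA per cell cannot be told apart.

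PRC2 methylates lysine 27 of histone H3, and PRC1 attaches ubiquitin to histone 2A. Canonical PRC1 carries a CBX protein that binds the PRC2 mark, while variant PRC1 carries RYBP or YAF2 in its place and reaches chromatin in other ways. Trithorax complexes of the COMPASS family methylate lysine 4 of histone H3, and the KDM6 enzymes remove the PRC2 mark. In ES cells both marks lie together on the promoters of many silent developmental genes, called bivalent, which resolve to one mark or the other as cells differentiate.

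After RA, members that differed between genotypes were mostly higher in DKO, and the largest difference was the opposite, a lower level of Cbx7. Of the 39 members, 18 were called at a limma adjusted p under 0.05, 16 higher and 2 lower in DKO, or 46.2%, against 42.7% of all genes tested. Over all genes, 22% were higher and 20.7% lower. The higher ones were 4 of 10 PRC2 genes, 1 of 2 ligase genes, 1 of 9 canonical and 5 of 9 variant PRC1 genes, and 5 of 9 COMPASS and demethylase genes. The 2 lower ones, Cbx7 and Phc2, are canonical PRC1 genes. The median log2 fold change was 0.10 over the members and 0.0083 over all genes. Without replicate 2 of WT after RA, 14 members were called, 12 higher and 2 lower, and the COMPASS and demethylase genes had 2 calls in place of 5.

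In serum/LIF the genotype difference ran both ways. There, 17 members were called, 9 higher and 8 lower in DKO, or 43.6%, against 33.2% of all genes, of which 17.8% were higher and 15.4% lower. PRC2 had 1 higher and 5 lower of 10, the ligases had none called, canonical PRC1 had 2 higher and 2 lower, variant PRC1 had 4 higher and none lower, and the COMPASS and demethylase genes had 2 higher and 1 lower. Neither ligase gene was called there by limma (adjusted p = 0.531 for Rnf2 and 0.481 for Ring1), 0 of them reached an unadjusted p under 0.05, and edgeR called 0. The median log2 fold change was 0.022 over members and −0.0051 over all genes.

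**Figure D1:**
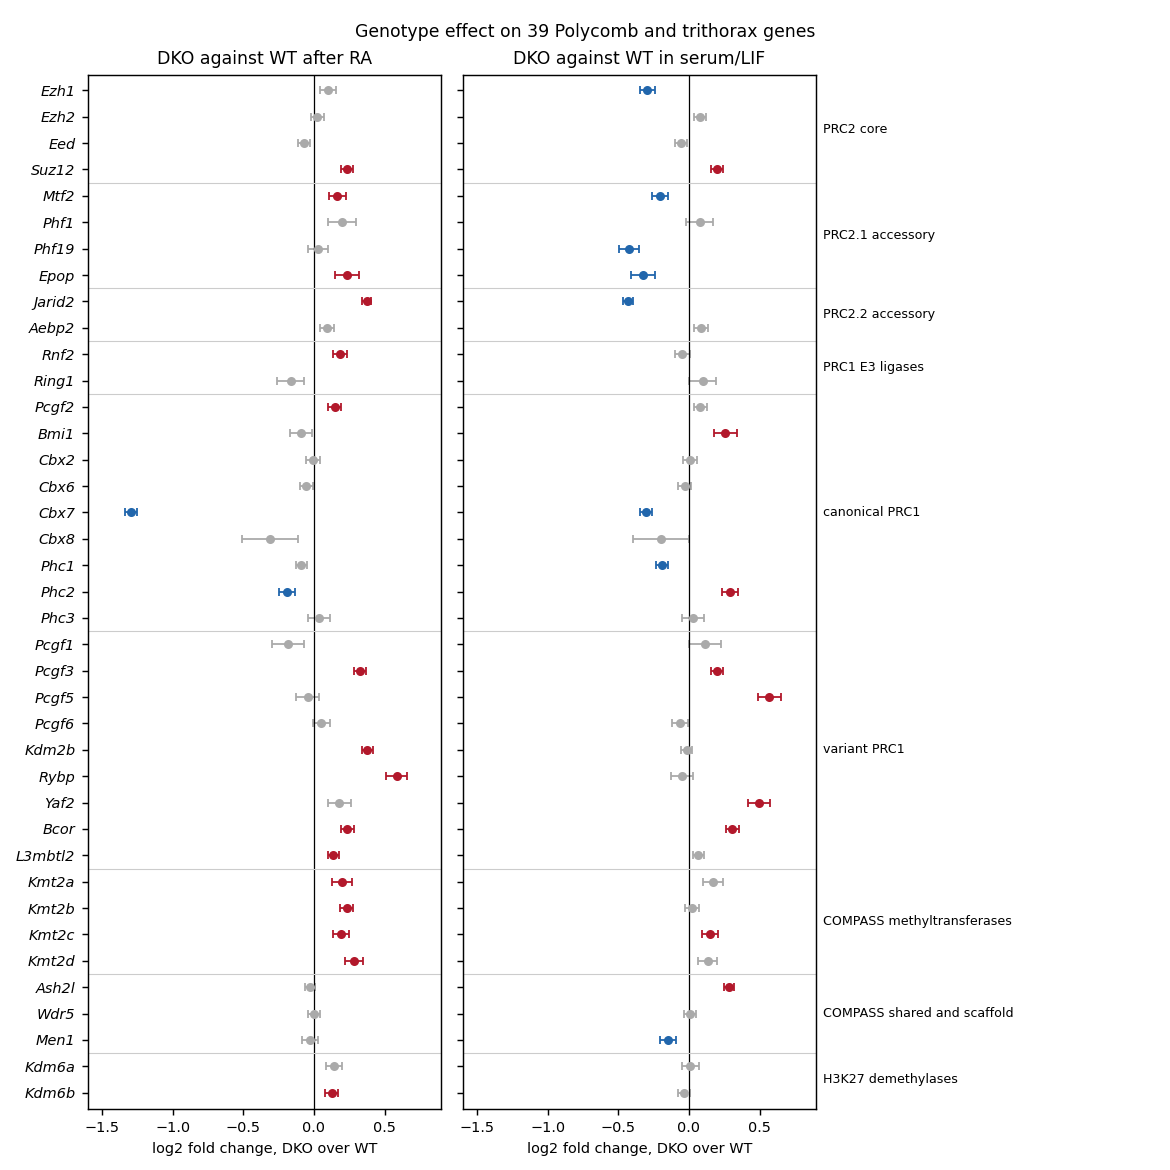
Log2 fold change of DKO over WT for each of the 39 genes (rows, grouped by complex), after RA on the left and in serum/LIF on the right. Points are limma estimates with bars of 1 SE (3 libraries per group), red for genes called higher, blue for genes called lower and grey for genes not called. Cbx7 after RA, at −1.30, lies farthest from 0, and Jarid2, Epop and Mtf2 lie right of 0 after RA and left of it in serum/LIF.

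RA itself moved nearly every member. In DKO, 35 of 39 were called, 14 higher and 21 lower after RA, against 78.3% of all genes (40.2% higher and 38.2% lower). In WT, 37 were called, 15 higher and 22 lower, against 80.6% of all genes (41.4% higher and 39.2% lower). In both genotypes the PRC2 members had 9 lower and 1 higher of 10, and canonical PRC1 had 6 higher and 3 lower of 9. The 5 other PRC2 genes read beside the members mostly went the other way. Of these, 4 were higher and 1 lower with RA in DKO, and 3 higher and 1 lower in WT. Variant PRC1 had 3 higher and 5 lower in DKO and 4 higher and 4 lower in WT, and the COMPASS and demethylase genes 3 higher and 4 lower in DKO and 3 higher and 5 lower in WT. The members' median log2 fold change was −0.22 in DKO and −0.28 in WT, against 0.035 and 0.037 over all genes. All 10 pluripotent markers fell with RA in both genotypes.

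The direction of small RA responses depends on the scaling. When libraries were scaled to their total reads in place of the authors' size factors, the median of all genes moved up by 0.23 in DKO and 0.26 in WT. The members' median was then 0.017 in DKO, against 0.27 for all genes, and −0.018 in WT, against 0.29. The calls in DKO were then 18 higher and 17 lower, and in WT 17 higher and 18 lower. PRC2 kept 8 lower and 1 higher in DKO and 9 lower and 1 higher in WT under that scaling.

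For 15 members the genotype difference itself differed between the conditions. Their interaction, the log2 difference of DKO from WT after RA less the same difference in serum/LIF, passed the same threshold. It was positive for 9 and negative for 6, or 38.5% of members, against 30.8% of all genes. Over all genes, 14.8% were positive and 16% negative. PRC2 had 5 positive and none negative of 10 and canonical PRC1 had 3 negative and none positive of 9. Variant PRC1 had 2 of each, the ligases 1 positive, and the COMPASS and demethylase genes 1 of each. The median was 0.041 over members and 0.00088 over all genes.

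**Figure D2:**
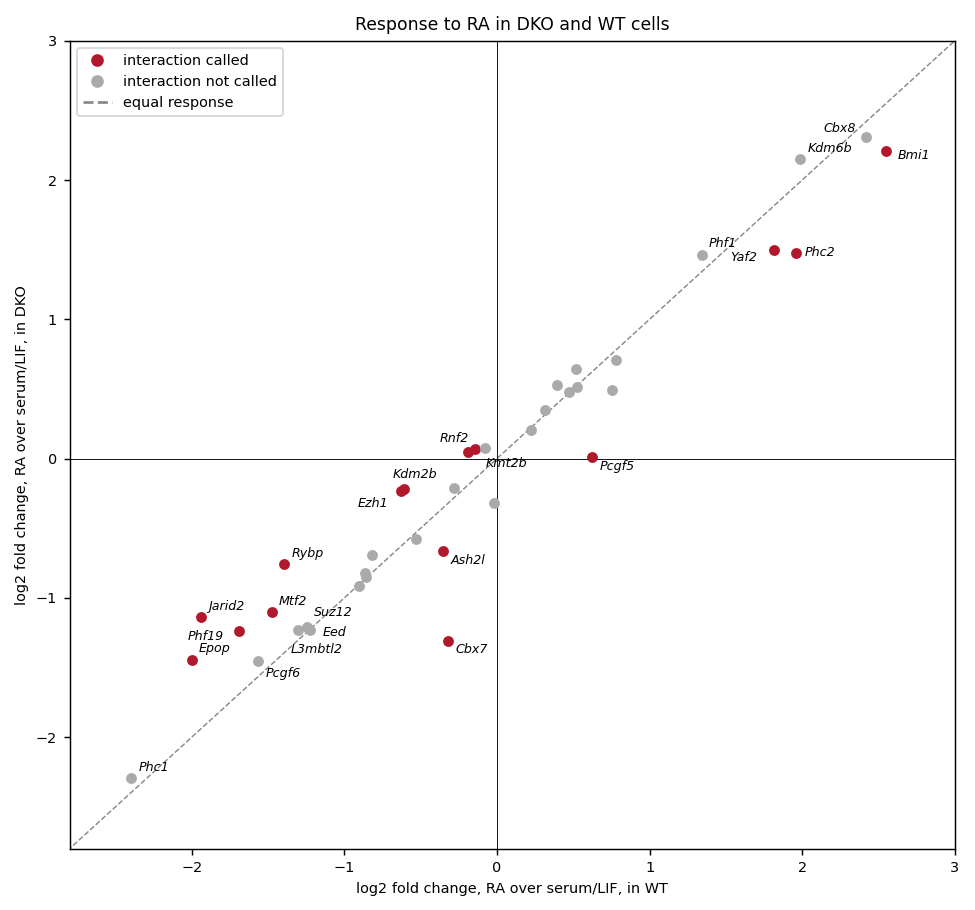
Response to RA of the 39 genes, with the log2 fold change in DKO on the vertical axis and that in WT on the horizontal axis. Each point is a gene, red where the interaction was called, and the dashed line marks an equal response. Cbx7, at −1.31 in DKO and −0.32 in WT, lies below the line, and Jarid2, at −1.14 in DKO and −1.94 in WT, lies above it.

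The 4 core PRC2 genes among the members, Ezh1, Ezh2, Eed and Suz12, all fell with RA in both genotypes. Rbbp4 and Rbbp7 were read with the other PRC2 genes. Of the 4, Suz12 was the one that was higher in DKO in both conditions. Suz12 encodes the scaffold of the complex. It had 10873, 10775 and 10989 in DKO and 9485, 8569 and 9726 in WT after RA, and in serum/LIF 25267, 26104 and 24055 in DKO and 23016, 21589.7 and 21217 in WT (normalized counts, as for all values per library below). All DKO libraries lay above all WT libraries in each condition (log2 fold change 0.23, SE 0.044, adjusted p = 0.000116 after RA, and 0.20, SE 0.044, adjusted p = 0.00107 in serum/LIF), and RA levels lay below every serum/LIF level. RA lowered it 2.31-fold in DKO (−1.21) and 2.37-fold in WT (−1.25). Eed encodes the subunit that binds the methyl mark. It had 2374, 2470.4 and 2387 in DKO and 2498, 2578 and 2504 in WT after RA, and in serum/LIF 5470.4, 5927 and 5605 in DKO and 5999, 5766 and 5944 in WT. The RA groups lay far below the others (−1.23 in DKO and −1.22 in WT), and the genotypes were not called different (adjusted p = 0.207 after RA and 0.304 in serum/LIF). Exons of Eed share 12.6% of their length with E230029C05Rik on the opposite strand.

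Of the catalytic subunits, Ezh2 had no called genotype difference and Ezh1 was lower in DKO in serum/LIF. Ezh1 had 1546, 1562 and 1504 in DKO and 1471, 1338 and 1497 in WT after RA, and in serum/LIF 1744, 1865 and 1808 in DKO and 2240.2, 2156 and 2249 in WT. The serum/LIF groups did not overlap (log2 fold change −0.30, SE 0.054, adjusted p = 0.000157), and after RA the DKO libraries lay just above the WT libraries without passing the threshold (0.10, adjusted p = 0.142). Its fall with RA was smaller in DKO (−0.23, and 0.0028 with libraries scaled to total reads) than in WT (−0.63), with an interaction of 0.40, SE 0.077, adjusted p = 0.000345. Ezh2 ranged from 4485 to 4883 in DKO and 4504 to 4756 in WT after RA, and 6733 to 7419.7 in DKO and 6438 to 6862 in WT in serum/LIF, with RA responses of −0.58 in DKO and −0.53 in WT. Per kilobase of exon, Ezh1 made up 13.1 ± 0.53% of the summed level of both genes in DKO and 12.5 ± 0.49% in WT after RA, and 10.6 ± 0.37% in DKO and 13.3 ± 0.18% in WT in serum/LIF (mean ± SD, n = 3). The remaining share is that of Ezh2, which held the larger part in every group.

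The accessory subunits of PRC2 direct the complex to its sites. Of their 6 genes among the members, 4 were lower in DKO in serum/LIF and none was higher. Of the 4 core genes among the members, 1 was higher and 1 lower. Over all genes, 15.4% were lower and 17.8% higher there. Jarid2, Epop, Mtf2 and Phf19 were each lower in DKO in serum/LIF, and each had a positive interaction. After RA, Jarid2, Epop and Mtf2 were higher in DKO, and Phf19 was not called.

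The 300-base windows around the annotated starts of Jarid2, Mtf2 and Phf19 are shown because these genes moved together in serum/LIF. They are RefSeq promoter sequences of build GRCm38.p6, from 250 bases before to 50 bases after the start, written 5′ to 3′ on the gene's strand, with CG dinucleotides in capitals. They lie at chr13:44731021-44731320, plus strand (Jarid2), chr5:108065424-108065723, plus strand (Mtf2) and chr2:34913927-34914226, minus strand (Phf19).
Jarid2: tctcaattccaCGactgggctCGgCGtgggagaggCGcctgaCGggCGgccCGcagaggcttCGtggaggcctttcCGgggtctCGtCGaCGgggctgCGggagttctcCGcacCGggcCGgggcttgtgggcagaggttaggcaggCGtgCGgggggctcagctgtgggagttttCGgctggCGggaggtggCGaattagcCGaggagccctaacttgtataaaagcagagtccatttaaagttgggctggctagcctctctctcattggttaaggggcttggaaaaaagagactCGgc
Mtf2: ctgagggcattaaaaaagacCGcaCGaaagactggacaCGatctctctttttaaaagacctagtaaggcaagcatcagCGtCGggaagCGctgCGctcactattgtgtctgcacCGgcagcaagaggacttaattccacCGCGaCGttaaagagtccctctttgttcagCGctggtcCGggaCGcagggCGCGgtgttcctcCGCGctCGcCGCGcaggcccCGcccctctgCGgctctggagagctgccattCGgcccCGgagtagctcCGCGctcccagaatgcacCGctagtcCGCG
Phf19: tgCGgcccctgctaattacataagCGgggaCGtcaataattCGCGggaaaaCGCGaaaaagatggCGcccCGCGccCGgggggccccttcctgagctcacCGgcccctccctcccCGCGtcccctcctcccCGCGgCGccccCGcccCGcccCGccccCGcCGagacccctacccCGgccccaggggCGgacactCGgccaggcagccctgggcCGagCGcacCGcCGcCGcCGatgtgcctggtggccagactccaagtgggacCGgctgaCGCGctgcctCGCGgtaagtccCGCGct
The window of Jarid2 holds 23 CG dinucleotides, that of Mtf2 30 and that of Phf19 38. The median is 23 over the nearest windows of the 31 members found in the table, which range from 4 to 56, and 7 over all 32851 windows, of which 21.5% hold 23 or more. Neither AGGTCA, a half-site bound by RA receptors, nor CACGTG, an E-box, was found in these 3 windows on either strand. AGGTCA is in 4 and CACGTG in 7 of the 31 member windows, or 12.9% and 22.6%, and in 16.3% and 7.15% of all windows. The member figures take the nearest window of each gene, and the others take every window. The 2 sets were not matched for CG content, and CACGTG itself holds a CG. For Bcor, Aebp2 and Phc1, the start in the nearest window lies 79793, 839 and 570 bases from the gene's start in the deposited data. The 2 motifs cannot overlap by more than 2 letters. A match is a description of the letters only.

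Jarid2 encodes a subunit of PRC2.2 that stimulates methylation. It had 6769, 6661 and 6948 in DKO and 5219, 5154 and 5367 in WT after RA, and in serum/LIF 15169, 14863 and 14787 in DKO and 20149, 20487 and 19850.2 in WT. No groups overlapped, and DKO libraries lay below WT libraries in serum/LIF and above them after RA. In DKO it was 1.35-fold lower in serum/LIF (log2 fold change −0.43, SE 0.034, adjusted p = 4.58e-10) and 1.29-fold higher after RA (0.37, SE 0.034, adjusted p = 4.74e-09). RA lowered it by 2.2-fold in DKO and 3.84-fold in WT, and the interaction was 0.80, SE 0.049, adjusted p = 7.49e-12.

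Epop encodes a PRC2.1 subunit that also binds elongin. It had 7233, 7531 and 6701 in DKO and 6036, 6860.0 and 5433 in WT after RA, and in serum/LIF 18940.5, 18127 and 21402 in DKO and 24599.8, 22774 and 25702 in WT. In serum/LIF all DKO libraries lay below WT (log2 fold change −0.32, SE 0.084, adjusted p = 0.0106), whereas after RA the ranges overlapped and the higher level in DKO was close to the threshold (0.23, SE 0.084, adjusted p = 0.0424). That last call was lost with any 1 of replicates 1 and 3 of WT in serum/LIF, replicates 1 and 2 of DKO after RA and replicates 1 and 3 of WT after RA left out (adjusted p = 0.0503 to 0.14). The interaction of Epop was 0.56, SE 0.12, adjusted p = 0.00359.

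Mtf2 and Phf19 encode Polycomb-like proteins that bind DNA rich in CG. Mtf2 had 5091, 4799 and 5074 in DKO and 4632, 4012 and 4721 in WT after RA, and in serum/LIF 10578, 11574 and 10081 in DKO and 13125, 12127 and 11857 in WT. No genotype groups overlapped (log2 fold change −0.20, SE 0.058, adjusted p = 0.00912 in serum/LIF, 0.17, SE 0.058, adjusted p = 0.0246 after RA, interaction 0.37, SE 0.082, adjusted p = 0.0015). The serum/LIF call was lost with any 1 of replicate 3 of DKO in serum/LIF and replicate 1 of WT in serum/LIF left out (adjusted p = 0.0522 to 0.0577), and the RA call with any 1 of replicates 1 and 3 of DKO after RA and replicate 2 of WT after RA left out (adjusted p = 0.0782 to 0.164). Phf19 had 584, 586 and 539 in DKO and 507, 569 and 602 in WT after RA, and in serum/LIF 1372, 1289 and 1380.0 in DKO and 1749, 1866 and 1806 in WT. It was 1.34-fold lower in DKO in serum/LIF, with no overlap (log2 fold change −0.42, SE 0.071, adjusted p = 5.04e-05), and after RA the ranges overlapped (0.029, SE 0.071, adjusted p = 0.777); the interaction was 0.45, SE 0.10, adjusted p = 0.0013. Exons of Mtf2 share 9.73% of their length with Tmed5 on the opposite strand, and whether reads were counted by strand is not given in the sources used here.

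Phf1 and Aebp2 showed no called genotype difference in the 2 comparisons. Phf1, the third Polycomb-like gene, had 754, 737 and 745 in DKO and 617, 690.4 and 643 in WT after RA, and in serum/LIF 284, 285 and 241 in DKO and 275, 259 and 235 in WT. Among the PRC2 members it was the one that rose with RA (log2 fold change 1.46, SE 0.10, adjusted p = 1e-12 in DKO and 1.34, SE 0.10, adjusted p = 4.65e-12 in WT). Its level was higher in every DKO library after RA but missed the threshold (0.20, adjusted p = 0.105). Aebp2, the other PRC2.2 subunit gene, ranged from 3386 to 3612 in DKO and 3145 to 3369 in WT after RA, and 5855 to 6788 in DKO and 5708 to 6194 in WT in serum/LIF. Its genotype difference in serum/LIF was called only with replicate 3 of DKO in serum/LIF left out (adjusted p = 0.0369).

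**Figure D3:**
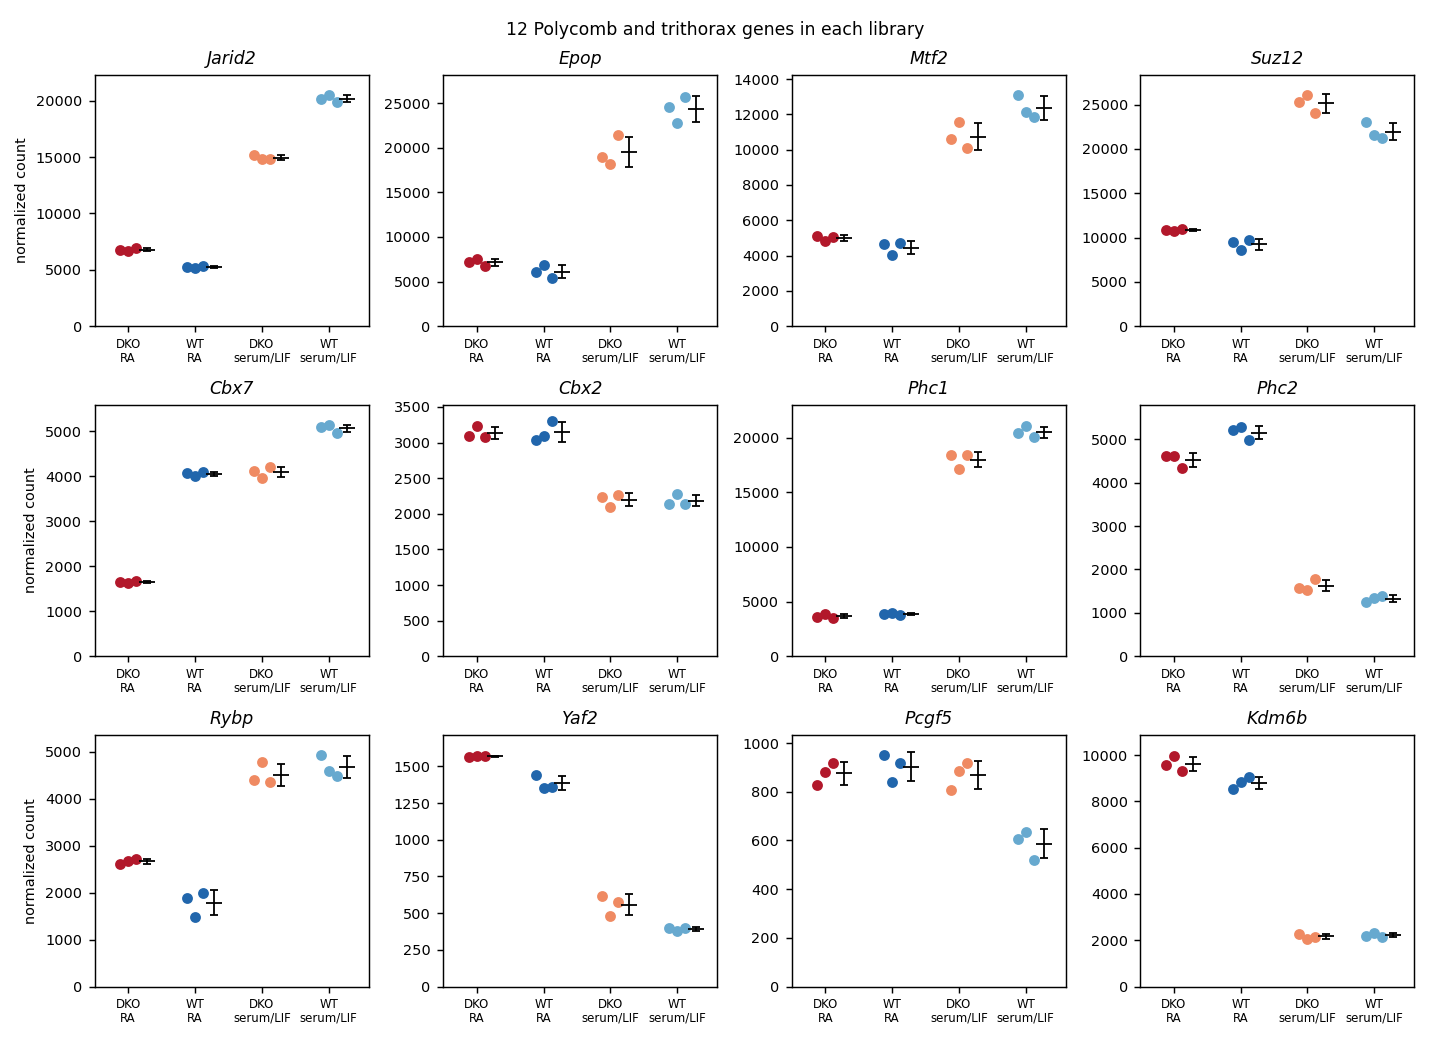
Normalized counts of 12 genes in each library. Each panel is a gene, points are libraries of DKO after RA, WT after RA, DKO in serum/LIF and WT in serum/LIF from left to right, and the bar beside them gives the mean and SD (n = 3). The axes are linear and start at 0. Cbx7 in DKO after RA, at 1639 to 1665, lies below all other groups, while the Cbx2 ranges of the genotypes overlap in both conditions.

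Of the 2 PRC1 ligase genes, Rnf2 was higher in DKO after RA and Ring1 was not called between genotypes. Rnf2 encodes RING1B, the main ligase of ES cells, and had 4427, 4229 and 4129.9 in DKO and 3706, 3637 and 3907 in WT after RA, and in serum/LIF 4028, 4527 and 3869.7 in DKO and 4359, 4357 and 4092 in WT. After RA the DKO libraries lay above the WT libraries (log2 fold change 0.18, SE 0.052, adjusted p = 0.00557), and in serum/LIF the ranges overlapped (−0.047, adjusted p = 0.531). Its interaction of 0.23, SE 0.073, adjusted p = 0.0182 was lost with any 1 of replicates 1 and 3 of DKO in serum/LIF and replicate 1 of DKO after RA left out (adjusted p = 0.0508 to 0.0613). In WT it was lower after RA (−0.19), a direction that turned with total-read scaling (0.074). Ring1, the other ligase gene, had 642, 605 and 585 in DKO and 606, 771 and 685 in WT after RA, and in serum/LIF 413, 420.2 and 472 in DKO and 371, 433 and 417 in WT. Genotype ranges overlapped in both conditions, and RA raised it (0.49 in DKO and 0.75 in WT, adjusted p = 7.07e-05 in DKO and 1.53e-07 in WT). Per kilobase, Rnf2 made up 80.9 ± 0.18% of both genes in DKO and 76.9 ± 2.4% in WT after RA, and 85.2 ± 1.8% in DKO and 86.4 ± 1.1% in WT in serum/LIF.

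Cbx7, the main chromodomain subunit of canonical PRC1 in ES cells, showed the largest genotype difference of the 39 genes. It had 1658, 1639 and 1665 in DKO and 4071, 4011 and 4102 in WT after RA, and in serum/LIF 4125, 3974 and 4199.7 in DKO and 5091, 5138 and 4976 in WT. DKO after RA lay below every other group. Cbx7 was 2.46-fold lower in DKO after RA (log2 fold change −1.30, SE 0.041, adjusted p = 2.9e-17) and 1.24-fold lower in serum/LIF (−0.31, SE 0.041, adjusted p = 2.24e-06). RA lowered it 2.48-fold in DKO (−1.31, SE 0.041, adjusted p = 4.27e-19) and 1.25-fold in WT (−0.32, SE 0.041, adjusted p = 1.39e-07), and the interaction was −0.99, SE 0.058, adjusted p = 4.08e-12. With total-read scaling the WT response was −0.059 and was not called (adjusted p = 0.191). In every alternative run, the genotype difference after RA lay between −1.30 and −1.29.

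The window around the Cbx7 start is shown because this gene carries the largest difference. It is the RefSeq sequence of GRCm38.p6 at chr15:79932597-79932896, minus strand, 5′ to 3′, with CG dinucleotides in capitals.
Cbx7: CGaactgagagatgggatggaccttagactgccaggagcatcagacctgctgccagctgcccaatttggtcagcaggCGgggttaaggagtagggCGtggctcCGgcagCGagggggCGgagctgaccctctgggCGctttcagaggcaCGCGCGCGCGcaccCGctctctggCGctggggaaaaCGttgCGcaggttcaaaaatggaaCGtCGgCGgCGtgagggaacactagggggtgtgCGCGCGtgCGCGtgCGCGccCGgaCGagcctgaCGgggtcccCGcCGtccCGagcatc
It holds 33 CG dinucleotides and neither AGGTCA nor CACGTG. The gene spans chr15:79915807-79932646.

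The other CBX genes among the members, Cbx2, Cbx6 and Cbx8, were not called between genotypes. Cbx2 ranged from 3084 to 3235 in DKO and 3039 to 3303 in WT after RA, and 2094 to 2262 in DKO and 2138 to 2280.1 in WT in serum/LIF. Cbx6 ranged from 2412 to 2528 in DKO and 2473 to 2639 in WT after RA, and 2108 to 2197 in DKO and 2136 to 2252 in WT in serum/LIF. Adjusted p-values between genotypes were large (adjusted p = 0.957 after RA and 0.926 in serum/LIF for Cbx2, and 0.381 and 0.664 for Cbx6), and both rose with RA (0.51 in DKO and 0.52 in WT for Cbx2, 0.20 in DKO and 0.22 in WT for Cbx6). Cbx6 shares 9.70% of its exon length with Npcd on the same strand. Cbx8, with few reads, had 293, 313 and 234 in DKO and 385, 280.0 and 378 in WT after RA, and in serum/LIF 48.2, 45.8 and 76.6 in DKO and 68.8, 53.7 and 69.2 in WT. Its genotype ranges overlapped (adjusted p = 0.224 after RA and 0.49 in serum/LIF), and RA raised it 4.92-fold in DKO (log2 fold change 2.31, SE 0.20, adjusted p = 1.52e-10) and 5.44-fold in WT (2.42, SE 0.20, adjusted p = 5.5e-11).

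In DKO after RA, Cbx2 and not Cbx7 held the largest share of the 4 CBX genes examined. Shares are of the summed levels of Cbx2, Cbx6, Cbx7 and Cbx8 per kilobase of exon. Cbx7 made up 26.8 ± 0.74% of this sum in DKO and 46.6 ± 0.32% in WT after RA, and 55.6 ± 0.26% in DKO and 60.6 ± 0.42% in WT in serum/LIF. Cbx2 made up 45.4 ± 0.36% in DKO and 32.3 ± 1% in WT after RA, and 26.6 ± 0.37% in DKO and 23.4 ± 0.48% in WT in serum/LIF. In the other 3 groups Cbx7 held the largest share.

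Within a library, the ratio of 2 genes does not depend on the size factor. The log2 ratio of the counts of Cbx7 to Cbx2 was −0.90, −0.98 and −0.89 in DKO and 0.42, 0.37 and 0.31 in WT after RA, and 0.88, 0.92 and 0.89 in DKO and 1.25, 1.17 and 1.22 in WT in serum/LIF. It was positive in 9 libraries and negative in the 3 of DKO after RA. An exact two-sided permutation test of 3 against 3 libraries cannot give a p below 0.1, and this difference of −1.29 reached it. Of 32 such tests (8 ratios in 4 comparisons), 27 gave p = 0.1, with a smallest adjusted p of 0.119 by the same exact test. Groups did not overlap for 7 of 8 ratios between genotypes after RA, for 4 of 8 between genotypes in serum/LIF and for all 8 between RA and serum/LIF in each genotype. Ratios of other gene pairs were not examined, so how common such separation is was not tested. Of all single genes, limma called 42.7% between genotypes after RA and 33.2% in serum/LIF. With RA it called 78.3% in DKO and 80.6% in WT.

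**Figure D4:**
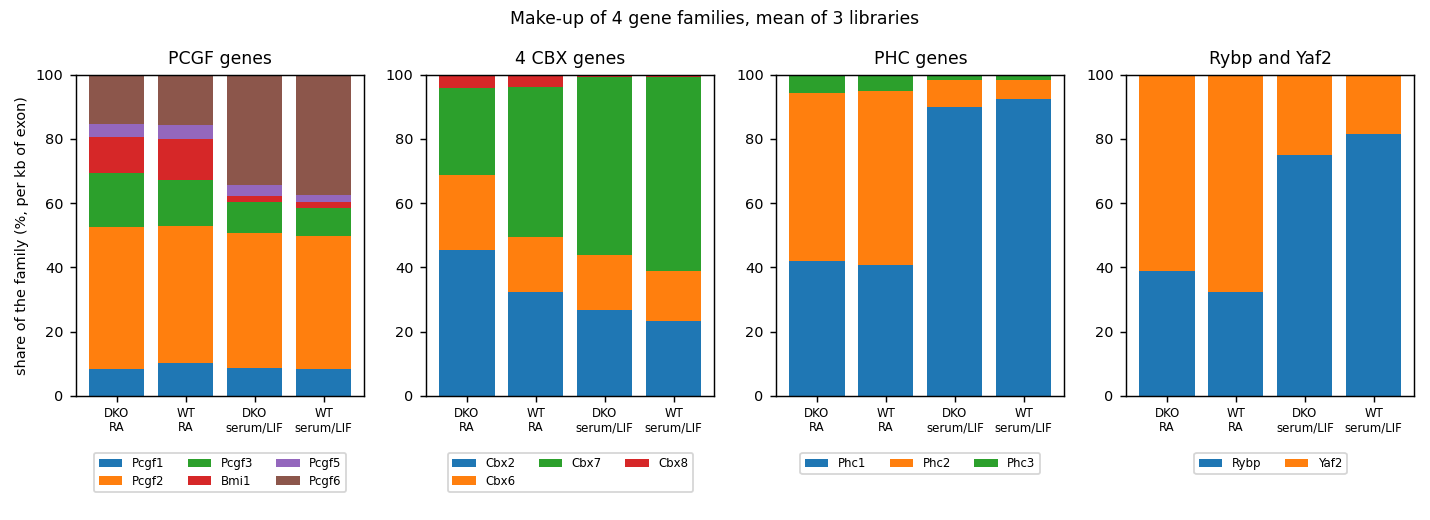
Share of each gene in its family (percent of the summed normalized counts per kilobase of exon, mean of 3 libraries) for PCGF genes, the 4 CBX genes examined, PHC genes, and Rybp with Yaf2. The bars stand for DKO after RA, WT after RA, DKO in serum/LIF and WT in serum/LIF. Cbx7 holds 26.8% of the summed level of the 4 CBX genes in DKO and 46.6% in WT after RA.

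The PHC genes, which encode Polyhomeotic proteins that let PRC1 polymerize, exchanged places with RA in both genotypes. Phc1 had 3633, 3843 and 3497 in DKO and 3879, 3999 and 3787 in WT after RA, and in serum/LIF 18367, 17155 and 18382 in DKO and 20380.0, 21026 and 20020.4 in WT. It fell 4.91-fold in DKO (log2 fold change −2.30, SE 0.041, adjusted p = 1.03e-23) and 5.27-fold in WT (−2.40, SE 0.041, adjusted p = 2.32e-24), and in serum/LIF every DKO library lay below WT (−0.19, SE 0.041, adjusted p = 0.000916). Phc2 had 4339 to 4615 in DKO and 4974 to 5281 in WT after RA, and 1534 to 1769.8 in DKO and 1242 to 1401 in WT in serum/LIF. Phc2 rose with RA (1.48 in DKO and 1.96 in WT), and DKO libraries lay above WT in serum/LIF (0.29, SE 0.056, adjusted p = 0.000263) and below WT after RA (−0.19, SE 0.056, adjusted p = 0.0088), with an interaction of −0.48, SE 0.079, adjusted p = 5.56e-05. The RA call was lost with replicate 3 of DKO after RA left out (adjusted p = 0.057). Phc1 made up 42.0 ± 0.79% of the family in DKO and 40.7 ± 0.29% in WT after RA, and 90.0 ± 0.41% in DKO and 92.4 ± 0.35% in WT in serum/LIF. Phc3 rose with RA (0.47 in DKO and 0.47 in WT) and was not called between genotypes (adjusted p = 0.753 after RA and 0.817 in serum/LIF). Without replicate 2 of DKO after RA, Phc1 was also called lower in DKO after RA (−0.089 over all libraries, adjusted p = 0.0317 without it).

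The PCGF subunits of canonical PRC1 are encoded by Pcgf2 and Bmi1. Bmi1 had 1373, 1296 and 1324 in DKO and 1371, 1392 and 1489 in WT after RA, and in serum/LIF 297, 300.4 and 267 in DKO and 234, 234 and 254 in WT. It was 4.62-fold higher after RA in DKO (log2 fold change 2.21, SE 0.08, adjusted p = 7.22e-18) and 5.88-fold in WT (2.55, SE 0.08, adjusted p = 2.79e-19), and DKO libraries lay above WT in serum/LIF (0.26, SE 0.08, adjusted p = 0.0152). That call was lost with any 1 of replicates 1 and 2 of DKO in serum/LIF left out (adjusted p = 0.0507 to 0.0518), and the interaction (−0.35, SE 0.11, adjusted p = 0.0216) was lost with any 1 of replicate 2 of DKO after RA and replicate 3 of WT after RA left out (adjusted p = 0.0573 to 0.0623). Pcgf2 had 3858 to 4121 in DKO and 3536 to 3781 in WT after RA, and 4501 to 4752 in DKO and 4283 to 4519 in WT in serum/LIF. It was higher in DKO after RA (0.15, SE 0.044, adjusted p = 0.00893), and its RA responses of −0.21 in DKO and −0.28 in WT became 0.02 and −0.018 with total-read scaling, neither called. Of all PCGF genes per kilobase, Bmi1 made up 11.2 ± 0.35% in DKO and 12.8 ± 0.67% in WT after RA, and 1.99 ± 0.1% in DKO and 1.74 ± 0.094% in WT in serum/LIF.

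Of the 9 variant PRC1 members, 5 were higher in DKO after RA and 4 in serum/LIF, and none was called lower. Over all genes, 22% were higher and 20.7% lower after RA, and 17.8% and 15.4% in serum/LIF. Of 20 other PRC1 genes, 5 were higher and 5 lower in each condition. Csnk2b after RA and Csnk2a1 in serum/LIF were among the lower. By limma, 0 of the 9 members were lower in DKO at an unadjusted p under 0.05 in either condition, and edgeR called 0 of them lower. Rybp, Kdm2b and L3mbtl2 were called after RA, Pcgf5 and Yaf2 in serum/LIF, and Bcor and Pcgf3 in both. Rybp encodes a subunit that stimulates the ligase and had 2604, 2683 and 2707 in DKO and 1877, 1490.2 and 1995 in WT after RA, and in serum/LIF 4386, 4777 and 4356 in DKO and 4928, 4590.2 and 4475 in WT. All DKO libraries lay above WT after RA (1.49-fold, log2 fold change 0.59, SE 0.076, adjusted p = 3.78e-06), and the ranges overlapped in serum/LIF (adjusted p = 0.66). RA lowered Rybp 1.69-fold in DKO and 2.61-fold in WT, and the interaction was 0.64, SE 0.11, adjusted p = 0.000149.

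Yaf2, a paralogue of Rybp, had 1562, 1569 and 1572 in DKO and 1438, 1354 and 1358 in WT after RA, and in serum/LIF 617, 478 and 578 in DKO and 397, 379 and 401 in WT. DKO libraries lay above WT in both conditions, called in serum/LIF (log2 fold change 0.50, SE 0.08, adjusted p = 2.73e-05) but not after RA (0.18, adjusted p = 0.0708), where the call was gained with replicate 2 of DKO in serum/LIF left out (adjusted p = 0.027). Yaf2 was also called after RA on recovered reads by edgeR (adjusted p = 0.0382) and DESeq2 (adjusted p = 0.0315), and by limma with only the groups compared (adjusted p = 0.00891). Its interaction (−0.32, SE 0.11, adjusted p = 0.0354) was lost with any 1 of replicates 1 and 3 of DKO in serum/LIF, replicate 2 of WT in serum/LIF, replicates 1, 2 and 3 of DKO after RA and replicate 1 of WT after RA left out (adjusted p = 0.0636 to 0.114). Yaf2 rose with RA (1.50 in DKO and 1.81 in WT) as Rybp fell. Per kilobase, Rybp made up 38.7 ± 0.4% of the pair in DKO and 32.4 ± 3.2% in WT after RA, and 75.0 ± 3.3% in DKO and 81.5 ± 0.84% in WT in serum/LIF.

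Kdm2b encodes a protein that brings variant PRC1 to unmethylated CG-rich DNA, and had 3963, 4314 and 4088 in DKO and 3173, 3133 and 3198 in WT after RA, and in serum/LIF 4782, 4837 and 4744 in DKO and 4879.7, 4894 and 4749.6 in WT. DKO libraries lay above WT after RA (log2 fold change 0.38, SE 0.041, adjusted p = 6.01e-08), the serum/LIF ranges overlapped (adjusted p = 0.807), and the interaction was 0.39, SE 0.058, adjusted p = 1.15e-05. RA lowered it in WT (−0.61) and less in DKO (−0.22, 0.017 with total-read scaling). Exons of Kdm2b share 10.7% of their length with Rnf34 on the opposite strand. Its partner Bcor ranged from 4645 to 4746 in DKO and 3820.4 to 4079.5 in WT after RA, and 2865 to 2884 in DKO and 2202 to 2415 in WT in serum/LIF, with no overlap between genotypes (0.24, SE 0.045, adjusted p = 0.000141 and 0.31, SE 0.045, adjusted p = 7.63e-06). Bcor rose with RA in both (0.71 in DKO and 0.78 in WT).

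Among the PCGF genes of variant PRC1, Pcgf5 was the one with the largest genotype difference. It had 827, 879.8 and 919.9 in DKO and 953, 839 and 919 in WT after RA, and in serum/LIF 807, 884 and 919 in DKO and 607, 633 and 521 in WT. WT in serum/LIF lay below the other 3 groups, which overlapped. In serum/LIF it was 1.48-fold higher in DKO (log2 fold change 0.57, SE 0.082, adjusted p = 6.67e-06). After RA the difference was −0.045 (adjusted p = 0.695), and the interaction was −0.61, SE 0.12, adjusted p = 0.00026. RA raised it in WT (0.62, SE 0.082, adjusted p = 2.21e-07), and in DKO the change of 0.0097 was not called (adjusted p = 0.919). With total-read scaling the change in DKO was 0.24 and was called (limma adjusted p = 0.0103).

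Pcgf3, of the same subcomplex as Pcgf5, was higher in DKO in both conditions (log2 fold change 0.33, SE 0.043, adjusted p = 1.32e-06 after RA, 0.20, SE 0.043, adjusted p = 0.000987 in serum/LIF), with 4725 to 4997 in DKO and 3669.8 to 3973 in WT after RA. Pcgf6, the subunit of the E2F6 and MGA form, fell with RA (−1.45 in DKO and −1.57 in WT) and was not called between genotypes (adjusted p = 0.475 after RA and 0.435 in serum/LIF). Its share of the PCGF family was 15.3 ± 0.15% in DKO and 15.7 ± 0.3% in WT after RA, and 34.4 ± 2% in DKO and 37.4 ± 1.3% in WT in serum/LIF. L3mbtl2, of the same form, had 3366, 3398 and 3399.6 in DKO and 3135, 3045 and 3059 in WT after RA, and in serum/LIF 7836, 7764 and 8263 in DKO and 7878, 7256 and 7658 in WT. It fell with RA (−1.23 in DKO and −1.30 in WT) and was slightly higher in DKO after RA (0.14, SE 0.041, adjusted p = 0.0084). Pcgf1, the partner of Kdm2b, had 232 to 285 in DKO and 299 to 305 in WT after RA, and was not called between genotypes (adjusted p = 0.203 after RA and 0.479 in serum/LIF). It fell with RA in DKO (−0.32, SE 0.11, adjusted p = 0.0137), a call lost with any 1 of replicate 1 of DKO in serum/LIF and replicate 1 of DKO after RA left out (adjusted p = 0.052 to 0.101), and in WT the change of −0.021 was not called (adjusted p = 0.87). With total-read scaling the Pcgf1 change in DKO was −0.083 and was not called (limma adjusted p = 0.504).

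**Figure D5:**
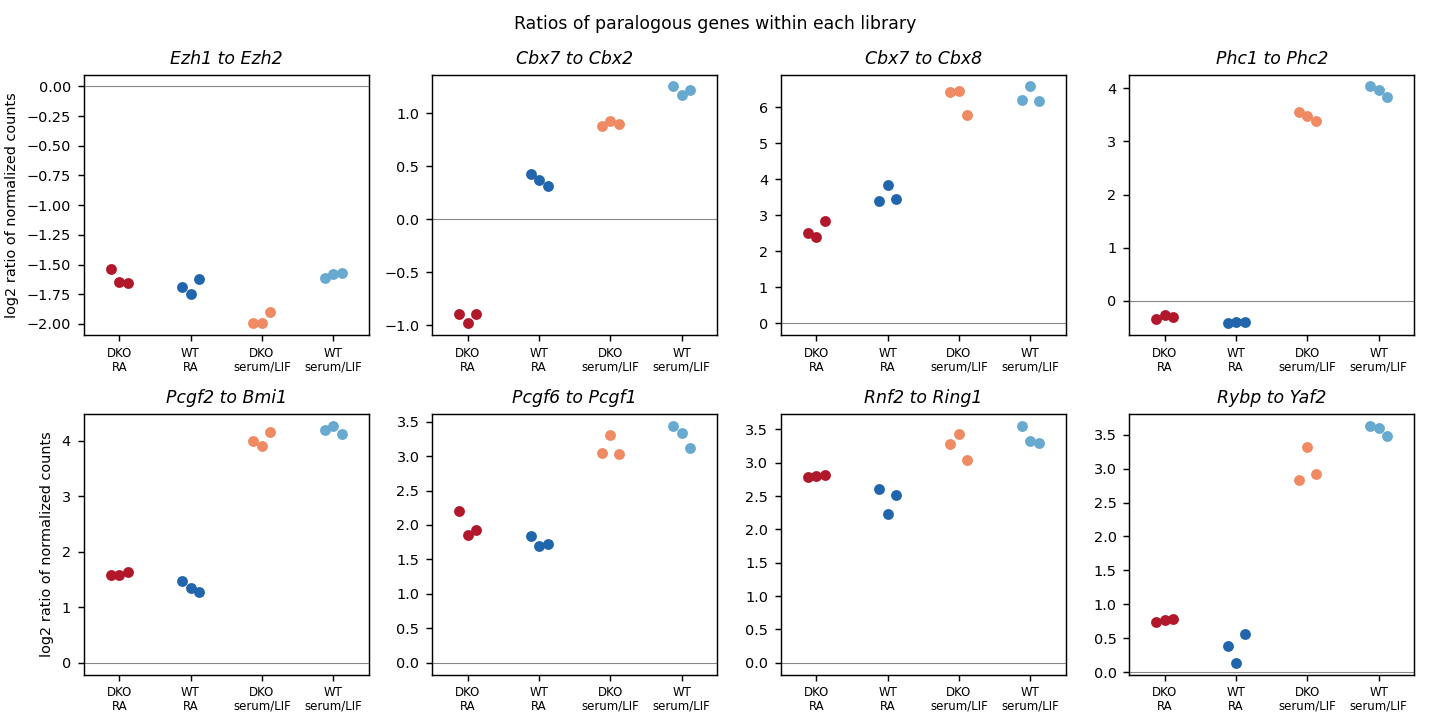
Log2 ratio of the normalized counts of paralogous genes within each library, for 8 pairs. Points are libraries of DKO after RA, WT after RA, DKO in serum/LIF and WT in serum/LIF, from left to right, and the thin line marks equal counts. Ratios are not corrected for gene length, and the vertical scales differ between panels. The Cbx7 to Cbx2 ratio is negative in DKO after RA alone, and the Phc1 to Phc2 ratio is negative in both RA groups.

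All 4 KMT2 genes among the COMPASS members, Kmt2a to Kmt2d, were higher in DKO after RA, by 0.19 to 0.28 on the log2 scale. Over all genes, 22% were higher there. Of 15 other COMPASS and trithorax genes, which include Setd1a and Setd1b, 5 were higher and 1 lower there. The calls for Kmt2a and Kmt2c were lost without replicate 2 of WT after RA. Kmt2b, the main enzyme for H3K4 trimethylation of bivalent promoters in mouse ES cells, had 5859, 5947 and 5973 in DKO and 4893, 4891 and 5381 in WT after RA, and in serum/LIF 5908, 5214 and 5878 in DKO and 5588, 5644 and 5489 in WT. Its DKO libraries lay above WT after RA (log2 fold change 0.23, SE 0.047, adjusted p = 0.000338) and overlapped WT in serum/LIF (adjusted p = 0.77). The interaction of Kmt2b (0.21, SE 0.067, adjusted p = 0.0193) was lost with any 1 of replicate 2 of DKO in serum/LIF and replicate 1 of WT after RA left out (adjusted p = 0.0589 to 0.0619). RA lowered it in WT (−0.14), which turned to 0.12 with total-read scaling.

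Kmt2d, which with Kmt2c acts at enhancers, had 5730.1, 5732 and 5324 in DKO and 4472, 4171 and 5198 in WT after RA, and in serum/LIF 5712, 4820.1 and 5459 in DKO and 4764, 4935 and 4839 in WT. After RA the DKO libraries lay above WT (log2 fold change 0.28, SE 0.067, adjusted p = 0.00194), and in serum/LIF they overlapped (adjusted p = 0.136). That serum/LIF difference was called with any 1 of replicate 2 of DKO in serum/LIF and replicate 3 of WT after RA left out (adjusted p = 0.0225 to 0.0439). Its RA response in WT of −0.077 was not called (adjusted p = 0.294) and was 0.18 with total-read scaling. Kmt2c had 2249, 2165 and 2371 in DKO and 1964, 1830.4 and 2158 in WT after RA, and in serum/LIF 4167, 3915 and 3934 in DKO and 3810.1, 3624 and 3398 in WT. It lay higher in DKO in both conditions (0.19, SE 0.057, adjusted p = 0.00922 after RA and 0.15, SE 0.057, adjusted p = 0.046 in serum/LIF) and fell with RA in both genotypes (−0.82 in DKO and −0.87 in WT). The Kmt2c call after RA was lost with any 1 of replicate 3 of DKO after RA and replicate 2 of WT after RA left out (adjusted p = 0.062 to 0.0694), and that in serum/LIF with any 1 of replicates 1, 2 and 3 of DKO in serum/LIF, replicates 2 and 3 of WT in serum/LIF, replicates 1 and 2 of DKO after RA and replicate 1 of WT after RA left out (adjusted p = 0.0507 to 0.211).

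Kmt2a, which with Kmt2b binds Menin, had 5640.1, 5574 and 5984 in DKO and 4767, 4580.0 and 5687 in WT after RA, and in serum/LIF 4876, 4172 and 4489 in DKO and 4171, 4124 and 3741 in WT. Its RA ranges overlapped by 1 WT library, replicate 3 (log2 fold change 0.20, SE 0.069, adjusted p = 0.0263), and the serum/LIF difference missed the threshold (0.17, adjusted p = 0.0706). The RA call was lost with any 1 of replicate 3 of DKO after RA and replicates 1 and 2 of WT after RA left out (adjusted p = 0.101 to 0.134), and the serum/LIF difference was called with any 1 of replicate 2 of DKO in serum/LIF and replicates 2 and 3 of WT after RA left out (adjusted p = 0.0136 to 0.0441). Kmt2a rose with RA in both genotypes (0.35 in DKO and 0.32 in WT). All 4 genes had their highest WT level after RA in replicate 3 and their lowest in replicate 2.

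Of the shared and scaffold COMPASS genes, none was called between genotypes after RA, and in serum/LIF Ash2l was higher and Men1 lower in DKO. Ash2l, part of the core that activates every KMT2 enzyme, had 16274, 15885 and 15945 in DKO and 16575, 16234 and 16208 in WT after RA, and in serum/LIF 24674, 26493 and 25059.9 in DKO and 20740.0, 20811 and 21034 in WT. DKO libraries lay above WT in serum/LIF (log2 fold change 0.28, SE 0.033, adjusted p = 2.8e-07) and within the WT range or below it after RA (−0.027, adjusted p = 0.538), with an interaction of −0.31, SE 0.047, adjusted p = 1.62e-05. Wdr5, of the same core, had 3807, 3945 and 3728 in DKO and 3953, 3901 and 3649.8 in WT after RA, and in serum/LIF 7097, 7146 and 7393 in DKO and 6931, 7424 and 7139.8 in WT. Its genotype ranges overlapped in both conditions (adjusted p = 0.971 after RA and 0.889 in serum/LIF), and it fell with RA (−0.91 in DKO and −0.90 in WT). Men1, which encodes Menin, had 3818 to 3862 in DKO and 3830.1 to 4077 in WT after RA, and 2225 to 2604 in DKO and 2580.2 to 2824 in WT in serum/LIF. It rose with RA (0.64 in DKO and 0.52 in WT). The call for its lower level in DKO in serum/LIF (−0.15, SE 0.055, adjusted p = 0.0406), with ranges that overlapped, was lost with any 1 of replicate 2 of DKO in serum/LIF, replicates 2 and 3 of WT in serum/LIF, replicates 1, 2 and 3 of DKO after RA and replicate 1 of WT after RA left out (adjusted p = 0.0506 to 0.293).

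The KDM6 genes, whose enzymes remove the PRC2 mark, exchanged places with RA in both genotypes. Kdm6b had 9572, 9962 and 9335 in DKO and 8550.1, 8819 and 9064 in WT after RA, and in serum/LIF 2289, 2067 and 2155 in DKO and 2185, 2327 and 2156 in WT. RA raised it 4.43-fold in DKO (log2 fold change 2.15, SE 0.046, adjusted p = 2.58e-22) and 3.96-fold in WT (1.99, SE 0.046, adjusted p = 6.36e-22), and DKO libraries lay slightly above WT after RA (0.13, SE 0.046, adjusted p = 0.0276). This last call was lost with any 1 of replicates 1 and 2 of DKO after RA and replicates 1 and 2 of WT after RA left out (adjusted p = 0.0501 to 0.136). Kdm6a, whose protein is also a COMPASS subunit, had 1827, 1779.8 and 1886 in DKO and 1673, 1560.5 and 1751 in WT after RA, and in serum/LIF 2896, 3149 and 2832 in DKO and 3165, 2853 and 2799.8 in WT. It fell with RA (−0.69 in DKO and −0.82 in WT) and every DKO library lay above WT after RA without passing the threshold (0.14, adjusted p = 0.0515). It was called with any 1 of replicates 2 and 3 of DKO in serum/LIF, replicates 1 and 3 of WT in serum/LIF and replicate 3 of WT after RA left out (adjusted p = 0.0224 to 0.049). Per kilobase, Kdm6b made up 82.4 ± 0.89% of the pair in DKO and 82.6 ± 0.78% in WT after RA, and 39.6 ± 2.3% in DKO and 40.3 ± 2% in WT in serum/LIF.

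A list of 55 other genes of these pathways was read beside the members. Between genotypes, 17 were higher and 9 lower in DKO after RA, and 11 were higher and 11 lower in serum/LIF, with medians of 0.039 and 0.0054. These calls are 47.3% of the list after RA, against 42.7% of all genes, and 40% in serum/LIF, against 33.2%. With RA, 26 were higher and 23 lower in DKO (89.1%, against 78.3% of all genes), and 27 higher and 24 lower in WT (92.7%, against 80.6%). The interaction was called for 15, 9 positive and 6 negative (27.3%, against 30.8% of all genes). Within the list, the 5 PRC2 genes had 0 higher and 2 lower in DKO after RA, and 1 higher and 2 lower in serum/LIF. Their interaction was called positive for 1 and negative for 1. Sfmbt2, a Polycomb gene that is imprinted in mouse, was higher in DKO in both conditions (log2 fold change 0.77, SE 0.064, adjusted p = 8.09e-10 after RA and 1.20, SE 0.064, adjusted p = 3.96e-13 in serum/LIF, interaction −0.43). In serum/LIF the others with the smallest adjusted p were Csnk2a1 (−0.27), a casein kinase subunit found in variant PRC1, Fbrsl1 (0.41) and Asxl3 (0.75), of the complex that removes the PRC1 mark. After RA they were Kdm5b (0.40), an H3K4 demethylase, Rbbp7 (−0.32), a histone-binding subunit of PRC2, and Csnk2b (−0.38). With RA, Dcaf7 rose (1.24 in DKO and 1.38 in WT), and Skp1 (−1.17 in DKO and −1.40 in WT) and Usp7 (−1.08 in DKO and −1.14 in WT), which join variant PRC1, fell. Tfdp1 (−0.99 in WT) and Dpy30 (−1.67 in DKO), a COMPASS subunit, also fell. The smallest adjusted p for the interaction belonged to Rbbp7 (−0.49), Kdm5b (0.45), Scmh1 (0.48) and Sfmbt2.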

How the data were processed

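RNA-seq libraries of DKO and WT TT2 cells, 3 per group, were analysed from the table of genes. Per the submitters' processing notes, reads were handled with Trim Galore 0.6.10, STAR 2.7.11b, featureCounts of Subread 2.0.6 and DESeq2 1.44.0 on mm10. How strand and multimapping reads were treated is not given in the sources used here. Deposited values are a signal, gene counts divided by size factors: 100% lay within 0.01 of a whole read. Per the labels, molecule and library source read genomic, while the protocol gives total RNA. The deposited repeat table and the authors' own fold changes were not used here.

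Values were transformed as log2(value + 1), and genes reaching 10 in at least 3 libraries were kept (15750; 2151 were below). One limma fit (limma 3.58.1, R 4.3.3, trend and robust) held 1 mean per group and no replicate block. P-values were Benjamini-Hochberg adjusted over all genes, and a gene was called under 0.05. A fold given without log2 is the ratio of 2 group means. The fit was checked on simulated data with known changes. The count test on recovered reads (edgeR 4.0.16) called 7097 genes between genotypes after RA and 5323 in serum/LIF, against 6727 and 5230 by limma. DESeq2 1.42.0 was another alternative, as were pseudocounts of 0.5 and 5, other filters and scalings, a replicate block, only the groups compared, and each library left out.

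Levels per kilobase use merged exons of GENCODE release M21 (mm10), and promoter sequences come from RefSeq tables of GRCm38.p6, which held 31 of the 39 genes. A member is given with every library's value where it had the smallest adjusted p or the largest fold of its list in a comparison, which took 27 of them. The others are given by range, for Pcgf1 and Pcgf3 after RA only. Phc3 and Pcgf6 are given without levels, by their changes and adjusted p. Of the other pathway genes, up to 4 called ones per comparison with the smallest adjusted p are named. The members and lists were chosen with earlier results of these data known.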

Additional observations from a re-analysis of the deposited data

Results flagged for a closer look

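For 15 of the 39 genes, the genotype effect after RA differed from that in serum/LIF by the interaction term of the limma fit (adjusted p under 0.05, 3 libraries per group). These are 38.5% of the members, against 30.8% of all genes tested. Among PRC2 genes the interaction, on the log2 scale, was 0.40 for Ezh1, 0.37 for Mtf2, 0.45 for Phf19, 0.56 for Epop and 0.80 for Jarid2. It was 0.23 for the ligase gene Rnf2. Among canonical PRC1 genes it was −0.35 for Bmi1, −0.99 for Cbx7 and −0.48 for Phc2. Among variant PRC1 genes it was −0.61 for Pcgf5, 0.39 for Kdm2b, 0.64 for Rybp and −0.32 for Yaf2. In the COMPASS group it was 0.21 for Kmt2b and −0.31 for Ash2l. Adjusted p-values of the limma fit ran between 4.08e-12 for Cbx7 and 0.0354 for Yaf2. Jarid2, Epop and Mtf2 were called in both conditions with opposite signs, lower in DKO in serum/LIF and higher after RA, and Phc2 the other way round. The calls of Epop, Mtf2 and Phc2 after RA and of Mtf2 in serum/LIF were each lost in some run with a library left out. Both calls of Jarid2 were kept in every alternative.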

How the results depend on the processing

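No count of calls over all 39 genes moved by more than 1.5 times in the alternatives run. Within complexes, calls of COMPASS and demethylase genes after RA went down to 2, against 5, without replicate 2 of WT after RA, and with total-read scaling 2 ligase genes, against 1, were called with RA in DKO and 1, against 2, in WT. Leaving out 1 library at a time gave 14 to 20 calls between genotypes after RA, 15 to 19 in serum/LIF, 34 to 36 with RA in DKO, 37 to 38 in WT and 13 to 16 for the interaction. Of 122 called results (39 genes, 5 comparisons), 100 stayed called in the same direction in every alternative, and of 73 not called, 59 stayed so. Without limma's trend and robust settings the counts were 13, 14, 35, 37 and 12, in the same order. That ended the calls of Mtf2, Kmt2c, Kmt2a, Kdm6b and Epop after RA, of Mtf2, Kmt2c and Men1 in serum/LIF, and of Rnf2, Kmt2b and Yaf2 for the interaction. With only the groups compared, Bmi1 (limma adjusted p = 0.105) and Men1 (0.0709) lost their serum/LIF calls, and after RA Yaf2, Phf1 and Kdm6a were called. With total-read scaling, 6 RA responses turned: in WT Rnf2 to 0.074, Kmt2b to 0.12 and Kmt2d to 0.18, and in DKO Kdm2b to 0.017, Pcgf2 to 0.020 and Ezh1 to 0.0028. That scaling changes all genes of a library by the same factor. In the RA comparisons it moved the median of all genes up by 0.23 in DKO and 0.26 in WT. With that scaling the serum/LIF call of Men1 was also lost (limma adjusted p = 0.0713), as were the RA calls of Pcgf1 in DKO and of Cbx7, Pcgf2 and Rnf2 in WT, and Rnf2, Kmt2b, Kmt2d and Pcgf5 were called with RA in DKO. With a replicate block the counts were 17, 16, 35, 37 and 15, without Epop after RA (limma adjusted p = 0.0695) and Men1 in serum/LIF (0.0547). Same-numbered libraries of different groups did not deviate together (r of −0.032 to 0.051 over 18 pairs, none above 0.1), so the numbers were not taken as pairs. Depth limits Cbx8, Bmi1, Pcgf1 and Phf1 most, the members with the fewest reads in serum/LIF.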
